A study of Homo sapiens and Mus musculus with 13 samples.

Results

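The HOX genes lie in 4 clusters in the human and the mouse genome, and peaks of RNA:DNA hybrids in these clusters were examined in 9 deposited lists. A peak was a member when it touched 1 of the 4 cluster windows of its species. Of the 454693 peaks in the 9 lists, 331 were members. In hg19 the windows were chr7:27130001-27260000 for HOXA, chr17:46600001-46820000 for HOXB, chr12:54330001-54460000 for HOXC and chr2:176940001-177060000 for HOXD. In mm9 they were chr6:52100001-52230000 for Hoxa, chr11:96000001-96250000 for Hoxb, chr15:102740001-102880000 for Hoxc and chr2:74490001-74620000 for Hoxd. The members numbered 89 in NT2 DRIP-seq digest A, 44 in digest B, 18 with RNase A, 2 with RNase H, 95 in NT2 DRIPc-seq and 30 in K562. In mouse they numbered 2 in E14 DRIP-seq, 22 in 3T3 DRIP-seq and 29 in 3T3 DRIPc-seq.

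Of the human lines, NT2 derives from a testicular embryonal carcinoma and is pluripotent, and K562 derives from a myeloid leukaemia. The mouse lines were E14 (embryonic stem cells) and 3T3 (fibroblasts). DRIP-seq recovers hybrids with an antibody from DNA cut by restriction enzymes and sequences the DNA, and DRIPc-seq sequences the RNA strand, so that each peak carries a strand. Digest B was cut with BamHI, NcoI, ApaLI, NheI and PvuII, and every other list with HindIII, EcoRI, BsrGI, XbaI and SspI, per the labels. In the RNase H and RNase A lists, NT2 DNA cut with digest A was treated with that enzyme. The NT2 DRIPc-seq list stands for 2 samples combined by the authors, and each other list for 1 sample. The labels name no RNase for the 3T3 DRIPc-seq sample, but the name of its list mentions RNase A, so whether it was treated is not known. With 1 list per condition there is no replicate error and no test: what sets lines or treatments apart cannot be told apart from what sets their libraries apart. The lists hold positions without heights or read counts, so the depth is unknown, and a missing peak means only that none was called.

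HOX genes encode homeodomain transcription factors that give cells their position along the body axis. Within a cluster the genes are numbered by paralog group, from the low numbers at the 3′ end to group 13 at the 5′ end, and in the embryo they are switched on in that order. In undifferentiated pluripotent cells the clusters are largely held silent under Polycomb marks, and NT2 cells are known for switching HOX genes on with retinoic acid. The clusters also give rise to antisense long noncoding RNAs. An R-loop forms when RNA pairs with the template DNA strand and leaves the other strand single; RNase H cuts RNA paired with DNA, and RNase A cuts RNA, at high salt mainly where it is unpaired.

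The 38 human HOX genes considered comprised 10 each of HOXA and HOXB and 9 each of HOXC and HOXD. In the RefSeq GRCh38.p14 tables the genes run from HOXA2 to HOXA13 and from HOXB1 to HOXB13 toward higher positions. Where a promoter was matched, its strand was minus in HOXA and HOXB and plus in HOXC and HOXD. Promoter sequence was matched for 20 of the 38 genes: 9 of HOXA, 1 of HOXB, 2 of HOXC and 8 of HOXD. As examples of sequence at these starts, the 250 bases upstream of 1 gene per cluster follow, 5′ to 3′ along the gene, with runs of at least 4 G in capitals. Group 4 genes were taken where the table holds one, and HOXB1 is the HOXB entry. HOXA4 is at chr7:27130758-27131007 (minus strand), HOXB1 at chr17:48531012-48531261 (minus strand), HOXC4 at chr12:54016638-54016887 (plus strand) and HOXD4 at chr2:176151300-176151549 (plus strand), all in GRCh38.p14.
HOXA4: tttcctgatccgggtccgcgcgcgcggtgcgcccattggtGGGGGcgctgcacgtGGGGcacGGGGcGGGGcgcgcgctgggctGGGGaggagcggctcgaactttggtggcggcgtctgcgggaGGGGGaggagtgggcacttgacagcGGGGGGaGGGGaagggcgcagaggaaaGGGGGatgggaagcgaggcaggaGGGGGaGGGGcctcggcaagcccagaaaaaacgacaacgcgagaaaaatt
HOXB1: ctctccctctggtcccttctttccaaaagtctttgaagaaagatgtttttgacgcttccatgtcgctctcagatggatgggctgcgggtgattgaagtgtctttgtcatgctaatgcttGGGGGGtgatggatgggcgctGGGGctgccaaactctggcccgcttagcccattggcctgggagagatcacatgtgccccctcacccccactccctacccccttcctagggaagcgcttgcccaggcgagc
HOXC4: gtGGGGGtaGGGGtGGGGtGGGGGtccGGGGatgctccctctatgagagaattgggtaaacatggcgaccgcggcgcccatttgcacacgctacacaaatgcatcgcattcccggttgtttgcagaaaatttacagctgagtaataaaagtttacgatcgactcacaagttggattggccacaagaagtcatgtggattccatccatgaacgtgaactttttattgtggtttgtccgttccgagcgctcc
HOXD4: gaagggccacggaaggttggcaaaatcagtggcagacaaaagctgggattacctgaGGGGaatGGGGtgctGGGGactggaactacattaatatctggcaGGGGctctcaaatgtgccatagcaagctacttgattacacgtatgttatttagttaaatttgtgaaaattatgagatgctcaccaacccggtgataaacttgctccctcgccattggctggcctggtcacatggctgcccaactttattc
These are GRCh38 positions and cannot be set against the hg19 peaks, and no peak was assigned to a gene. HOXA4 held 11 such G runs and no C run of that kind, HOXC4 held 5 and HOXD4 held 4, also with no C run, and HOXB1 held 2 G runs and 3 C runs. Over the 26 promoter windows of the 20 genes, GGGG was found on the gene's strand in 88.5%, on the other strand in 76.9% and on either strand in 100%. The printed sequences are not typical of these windows: HOXA4 had the most G runs of all, and most windows held a C run. The shares over all 34943 promoters of that length were 70.3%, 70.0% and 87.0%. The median GC content was close, 58.8% against 58.0%, while the median number of CpG dinucleotides was 19.5 against 11. Some genes have several promoter windows, HOXA3 among them with 7, so these windows are not independent.

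All 4 clusters were densely covered in NT2. Digest A peaks covered 58.0% of the HOXA window, 49.3% of HOXB, 38.5% of HOXC and 40.7% of HOXD, where 4.38% of all chromosomes was covered. Digest B covered 72.9%, 53.9%, 54.8% and 50.6% in the same order, against 6.29% of the chromosomes. NT2 DRIPc-seq, both strands joined, covered 55.7%, 38.4%, 42.2% and 40.1%, against 7.23%. In each of these 3 lists the HOXA window was the most covered of the 4 by percent. In kb, HOXB held more: 108.5 against 75.4 in digest A, 118.7 against 94.8 in digest B and 84.4 against 72.5 in DRIPc-seq. The HOXB window is the longest, 220 kb, and holds the open stretch described below, so the rank by percent depends on the window borders. The ratio of window to chromosome cover was 8.78 to 13.2 in digest A, 8.04 to 11.6 in digest B and 5.31 to 7.71 in DRIPc-seq. All chromosomes include stretches with no gene or CpG island, so this ratio does not set the clusters against other gene-rich sequence. Chromosome 17, which holds HOXB, was itself covered to 13.8% in digest A, 16.8% in digest B and 11.2% in DRIPc-seq. HOXB thus stood less far above its own chromosome than the ratio shows. The other chromosomes with a cluster had 3.10% to 4.61%, 5.35% to 6.72% and 7.72% to 8.06% in the same order.

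**Figure D1:**
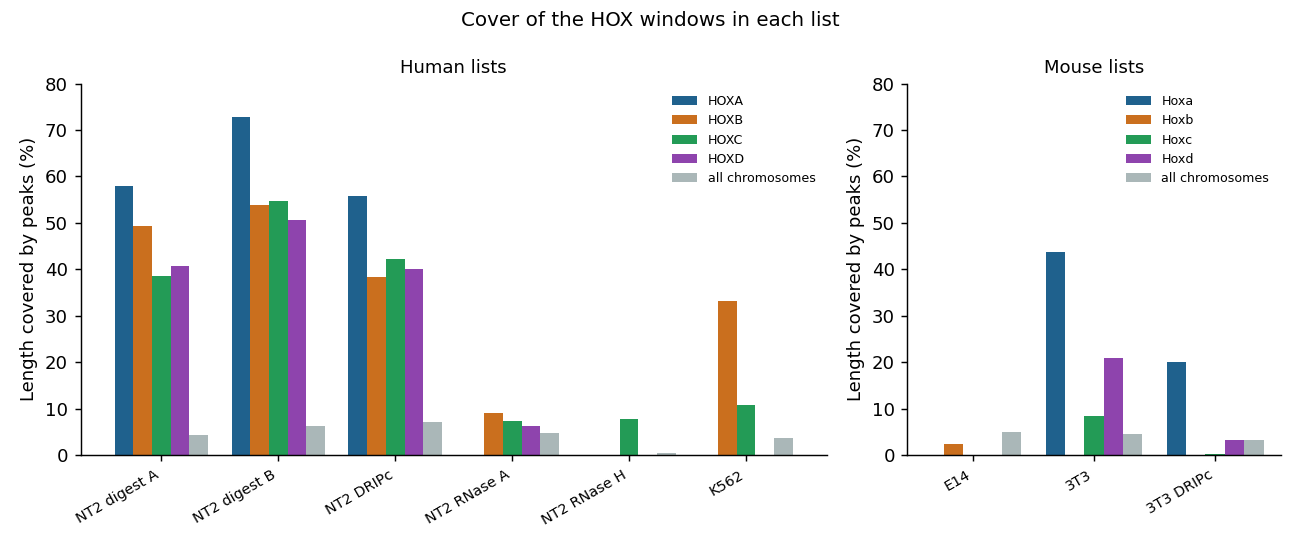
Percent of each HOX window covered by peaks (y axis) in each list (x axis), with 1 coloured bar per cluster and a grey bar for all chromosomes. The 3 untreated NT2 lists cover 38.4% to 72.9% of every human window, while the RNase A, RNase H and K562 lists have windows with no bar.

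The cover stopped near the window edges at some borders and not at others. In flanks as long as the window on each side, digest A covered 0% on both sides of HOXA, and 2.44% and 2.52% beside HOXD. Beside HOXB it covered 0% on the side of HOXB1 and 17.9% on the side of HOXB13, and beside HOXC 0% on the HOXC13 side and 20.6% on the HOXC4 side. The HOXB and HOXC clusters thus adjoin covered sequence on 1 side each. Digest A listed 38 peaks within 1 Mb outside the HOXA window and 17 outside HOXD, against 158 outside HOXB and 130 outside HOXC. In digest A, HOXA and HOXD thus had fewer peaks around them than HOXB and HOXC. DRIPc-seq listed 88 peaks outside HOXA, 110 outside HOXB, 86 outside HOXC and 29 outside HOXD, so the numbers beside HOXA and HOXC were close in that list.

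In the untreated NT2 lists, peaks in the clusters were longer at the median than in the whole list. The median length was 2348 bp for the 89 digest A members against 1206 bp for the whole list, and 5456.5 bp against 2841 bp in digest B. In NT2 DRIPc-seq it was 2261 bp against 1749 bp, though in HOXC alone only 1787 bp. Members were shorter in the RNase A list, 1193.5 bp against 1727 bp, and in 3T3 DRIPc-seq, 800 bp against 1060 bp. In the remaining lists the members had the longer median. Many peaks abutted, so runs of peaks were joined over gaps of up to 1 kb. The longest run in digest A was 34.3 kb in HOXA (chr7:27200041-27234350), 47.9 kb in HOXB (chr17:46678638-46726557), 20.3 kb in HOXC (chr12:54386683-54406958) and 21.7 kb in HOXD (chr2:176969048-176990776). In digest B a run of 109.4 kb spanned chr17:46617654-46727053, which is nearly all of the covered part of HOXB.

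The HOXB window had an open stretch. In digest A no peak was called for 69.1 kb, from chr17:46726557 to 46795656, and in digest B for 69.2 kb, from 46727053 to 46796295. Beyond it a last block of digest A reached from 46795656 to 46807291. DRIPc-seq had 1 peak inside the stretch, so that its longest gap was 47.3 kb. The RNase A list also had a peak inside it, of 114 bp at chr17:46784832-46784945. HOXB13 is set apart from the other HOXB genes: between HOXB9 and HOXB13, RefSeq lists HOXB-AS4, MIR196A1, LINC03057, LINC02086, RPL9P28, COX6B1P2, PRAC2, PRAC1 and MIR3185, 9 entries in all. Whether the last block lies at HOXB13 was not determined, since no hg19 annotation was used.

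**Figure D2:**
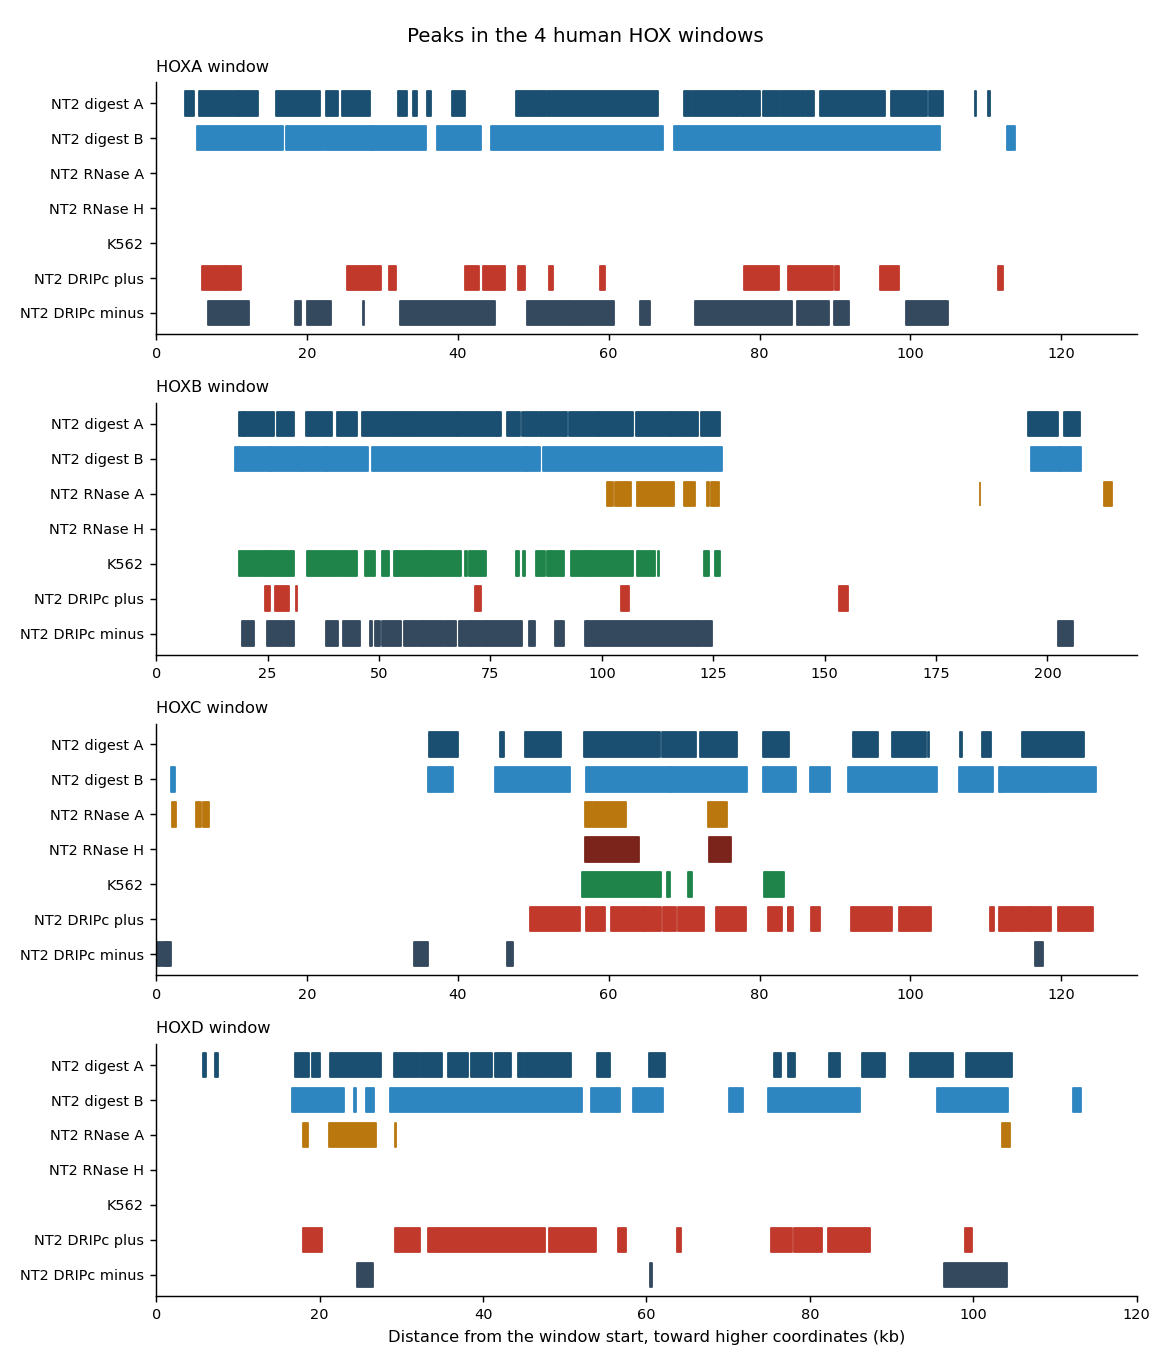
Peaks of each human list (rows) along the 4 HOX windows, with distance from the window start in kb on the x axis and DRIPc-seq split by strand. The rows for digest A, digest B and DRIPc-seq are filled in all 4 windows, the RNase A, RNase H and K562 rows are empty in HOXA, and the open stretch of 69.1 kb stands out in HOXB.

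The 3 untreated NT2 maps overlapped in all 4 clusters, and each also marked sequence of its own. Of the 89 digest A members, 82 (92.1%, exact Clopper-Pearson 95% interval 84.5 to 96.8) touched a digest B peak, where 76.8% of all digest A peaks did. By cluster these were 23 of 27 in HOXA, 26 of 26 in HOXB, 13 of 13 in HOXC and 20 of 23 in HOXD. By length, 95.9%, 97.7%, 97.8% and 77.5% of digest A cover was also in digest B, and 77.5% over the whole list. By length HOXD shared least, at the level of the whole list, while by number of peaks HOXA did. In the other direction 37 of 44 digest B members (84.1%, 69.9 to 93.4) touched digest A, where 70.9% of all digest B peaks did. Of the digest A members, 76 (85.4%, 76.3 to 92.0) also touched a DRIPc-seq peak, where 61.4% of all did. Intervals cover counting error only, and neighbouring peaks of a cluster are not independent. All 3 maps together covered 54.2 kb of HOXA, 74.9 kb of HOXB, 37.3 kb of HOXC and 29.3 kb of HOXD, which is 41.7%, 34.0%, 28.7% and 24.4% of the windows. At least 1 of the 3 maps covered 78.3%, 56%, 59.6% and 62.0%.

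After RNase A most of this cover was no longer called. In HOXA none of the 27 digest A peaks touched an RNase A peak, because the RNase A list has no peak in the window. In HOXB 21 of 26 had none, in HOXC 11 of 13 and in HOXD 19 of 23. In all, 78 of 89 members (87.6%, 79.0 to 93.7) had no RNase A peak, against a background of 34.5% over all 67126 digest A peaks. The RNase A list as a whole was not short: it held 59825 peaks covering 4.84% of the chromosomes, against 4.38% for digest A. In the windows its cover was 0%, 9.01%, 7.42% and 6.25%, or 6.16% over the 4. Cover of the windows was thus far above that of the chromosomes in digest A and near it in the RNase A list. The RNase A list still held 14 peaks within 1 Mb below the HOXA window and 18 within 1 Mb above it.

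The same reading held by length of DNA and by length of peak. RNase A peaks covered 0% of digest A length in HOXA, 16.5% in HOXB and 15.3% in both HOXC and HOXD, where they covered 70.1% of the whole digest A list. Long digest A peaks were usually kept under RNase A elsewhere: from the shortest to the longest quartile of length, 61.4%, 41.7%, 25.8% and 8.90% of all digest A peaks had no RNase A peak. Among members in these quartiles the shares were 100%, 93.8%, 100% and 76.2%, out of 11, 16, 20 and 42 peaks. Since the members are long, the comparison within quartiles is the closer one, and the member share was higher in each. Just outside the windows, within 1 Mb, 47.4% of digest A peaks near HOXA (31.0 to 64.2), 30.4% near HOXB (23.3 to 38.2), 36.9% near HOXC (28.6 to 45.8) and 52.9% near HOXD (27.8 to 77.0) had no RNase A peak. On the whole chromosomes the shares were 35.9%, 32.4%, 24.8% and 38.5%. Each share beside a window was below that of the window itself, and all 4 intervals hold the background of 34.5%.

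**Figure D3:**
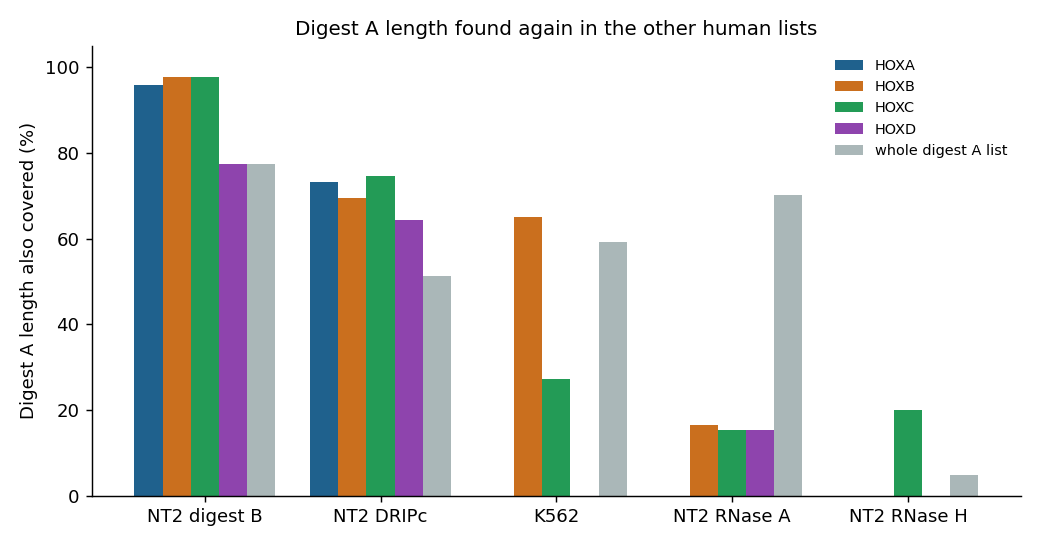
Percent of digest A length (y axis) also covered in each other human list (x axis), by cluster and, in grey, for the whole digest A list. Digest B and DRIPc-seq cover 64.3% to 97.8% of the digest A length in the clusters, while RNase A covers 0% to 16.5% of it there and 70.1% of the whole list.

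With the other untreated NT2 maps the pooled shares were also above the background. With digest B, 33 of 44 members (75%, 59.7 to 86.8) had no RNase A peak, where 39.7% of all digest B peaks had none. The count was 9 of 9 in HOXA, 10 of 12 in HOXB, 9 of 12 in HOXC and 5 of 11 in HOXD. HOXD was the cluster nearest the background in that count, yet by length RNase A covered 7.11% of its digest B cover against 47.3% of the whole list. Within quartiles of digest B length, from the shortest to the longest, 55.6%, 80%, 100% and 75% of members had no RNase A peak, against 73.0%, 43.2%, 28.5% and 14.4% of all. Among the shortest digest B peaks, 9 of them members, the member share was thus the lower one. The other quartiles held 5, 6 and 24 members. The intervals of the 55.6% and 80% shares, 21.2 to 86.3 and 28.4 to 99.5, hold the shares of all peaks in those quartiles. With DRIPc-seq, 85 of 95 members (89.5%, 81.5 to 94.8) had no RNase A peak, where 60.2% of all did. Of the sequence shared by the 3 untreated maps, RNase A peaks covered 0% in HOXA, 21.8% in HOXB, 15% in HOXC and 7.57% in HOXD.

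The loss ran over long stretches. Tiles of 10 kb with at least 50% digest A cover numbered 29 in the clusters, and 22 of them (75.9%, 56.5 to 89.7) had no RNase A cover at all, where 3.13% of 9900 such tiles had none. HOXA gave 8 of 8, HOXB 9 of 12, HOXC 2 of 5 and HOXD 3 of 4. Tiles of 100 kb with at least 25% digest A cover were also used, a size chosen after the data were examined. They were given to a cluster when they overlapped its window, while tiles of 10 kb had to lie wholly inside. Of 1661 such 100 kb tiles, 5 (0.301%) had no RNase A cover. The 6 tiles overlapping a window held 3 of those 5, 2 of them in HOXA and 1 in HOXB. The longest digest A region with no RNase A peak was 30.1 kb in HOXB, chr17:46646148-46676264. Digest B covered 97.0% of it, DRIPc-seq 84.8% and K562 75.4%. The next longest were 9.82 kb (chr7:27186685-27196506) and 8.95 kb (chr7:27201124-27210073), both in HOXA, both fully covered in digest B and without a K562 peak. DRIPc-seq covered 53.7% of the first and 96.5% of the second.

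The peaks of the RNase A list lay in few places of the windows. Of the 18 RNase A peaks in the windows, 13 (72.2%, 46.5 to 90.3) touched digest A, where 65.7% of all RNase A peaks did. In HOXB 6 of the 8 peaks stood between chr17:46701132 and 46726385, the side of the covered block that faces the open stretch. The longest of them, 8.26 kb at chr17:46707934-46716196, was covered in full by digest B and DRIPc-seq. The other 2 HOXB peaks touched no digest A peak. In HOXC 3 peaks stood at the HOXC13 end of the window, between chr12:54332094 and 54337016, with no digest A peak, and 3 stood inside digest A cover. In HOXD the longest was 5.76 kb at chr2:176961190-176966954, and digest A covered 99.3% of it. HOXD had 3 shorter RNase A peaks, of 124 to 959 bp, all in digest A cover.

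The RNase H list had no peak in HOXA, HOXB or HOXD and 2 in HOXC. Of the 89 digest A members, 87 (97.8%, 92.1 to 99.7) had no RNase H peak, where 94.9% of all digest A peaks had none. The list as a whole held 8998 peaks and covered 0.497% of the chromosomes. In HOXC, 11 of the 13 digest A peaks (84.6%, 54.6 to 98.1) had no RNase H peak. RNase H covered 7.74% of the HOXC window and 20.1% of its digest A length, against 4.81% of the whole digest A list. The 2 HOXC peaks were at chr12:54386795-54394005 (7211 bp) and chr12:54403307-54406158 (2852 bp). Both touched RNase A peaks, where 64.5% of all RNase H peaks did, and 3 of the 6 HOXC RNase A peaks touched them. The first place carried a peak in every human list: digest A called 10.1 kb (chr12:54386683-54396787) and K562 10.4 kb (chr12:54386517-54396921). Of the digest A region, RNase A covered 50.5%, RNase H 71.4%, DRIPc-seq 89.1% and K562 100%.

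K562 had peaks in HOXB and HOXC and none in HOXA or HOXD. The K562 list had 26 peaks in HOXB and 4 in HOXC, covering 33.1% and 10.7% of the windows, while it covered 3.76% of the chromosomes. It did list 16 peaks within 1 Mb outside HOXA and 14 outside HOXD. All 30 K562 members (100%, 88.4 to 100) touched an NT2 digest A peak, where 67.3% of all K562 peaks did, and 96.9% of their length was in digest A. In these windows K562 therefore had no peak that NT2 lacked. Of the digest A members, 22 of 89 (24.7%, 16.2 to 35) touched a K562 peak, where 54.7% of all did. The count was 0 of 27 in HOXA (0 to 12.8%), 19 of 26 in HOXB, 3 of 13 in HOXC and 0 of 23 in HOXD (0 to 14.8%). Within 1 Mb outside HOXA, 28.9% of digest A peaks touched K562, and outside HOXD 58.8%.

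Inside HOXB, K562 cover was uneven. Split at the middle of the window, K562 covered 62.1% of the side of HOXB1 and 4.13% of the side of HOXB13. Digest A covered 74.8% and 23.7% of the same sides. The block beyond the open stretch, 46795656 to 46807291, held digest A, digest B and DRIPc-seq peaks and no K562 peak, since the last K562 peak ended at 46726486. Of the HOXB sequence shared by the 3 untreated NT2 maps, K562 covered 67.1%, and of that in HOXC 31.3%. The longest K562 region of HOXB, 10.7 kb at chr17:46696391-46707079, was covered in full by digest B and DRIPc-seq and to 98.8% by digest A.

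By length, most NT2 DRIPc-seq cover in the windows was on the strand of the HOX genes. Of the DRIPc-seq cover in the 4 windows, 78.1% was on that strand only, 11.1% on the opposite strand only and 10.8% on both. Over the whole list 3.99% of the cover was on both strands. The gene-strand share over all genes was not analysed here, so the clusters are not set against it. HOXB, HOXC and HOXD had 88.7%, 89.6% and 79.2% on the gene strand only, and HOXA 56.1%. The strand of the RNA is what the assay reads, and other genes in the windows, antisense RNAs included, were not separated from the HOX genes. By number of peaks, 64 of 95 (67.4%, 57.0 to 76.6) were on the gene strand: 14 of 29 in HOXA, 20 of 26 in HOXB, 19 of 26 in HOXC and 11 of 14 in HOXD. Opposite-strand peaks were shorter in each cluster, with medians of 743 to 2012 bp against 2496 to 3060.5 bp.

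The longest regions followed the gene strand. On the minus strand these were 28.5 kb in HOXB (chr17:46696309-46724789), 14.2 kb in HOXB (chr17:46667864-46682103) and 12.9 kb in HOXA (chr7:27201433-27214347). On the plus strand they were 14.4 kb in HOXD (chr2:176973257-176987610), 6.62 kb in HOXC (chr12:54379554-54386174) and 6.61 kb in HOXC (chr12:54390327-54396931). RNase A peaks covered 57.3% of the first, 28.8% of the last and 0% of the other 4. A HOXD peak of 7.70 kb on the minus strand, opposite to the genes, was longer than both HOXC regions.

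HOXA carried hybrid RNA on both strands. In HOXA 12.4 kb was covered on the plus strand only, opposite to the genes, and 19.4 kb, or 26.8% of the cover, on both strands. Overlap of the strands was 7.93% of the cover in HOXB, 2.07% in HOXC and 1.88% in HOXD. Counted by peaks, 19 of 29 in HOXA touched a peak of the opposite strand, 8 of 26 in HOXB, 2 of 26 in HOXC and 2 of 14 in HOXD. The total was 31 of 95 (32.6%, 23.4 to 43.0), where 9.70% of all DRIPc-seq peaks did. HOXD had 1 opposite-strand peak of 7.70 kb, the longest of that kind in the 4 windows. Antisense genes are known at HOXA, among them HOTAIRM1 and HOXA11-AS, and no peak was assigned to them.

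**Figure D4:**
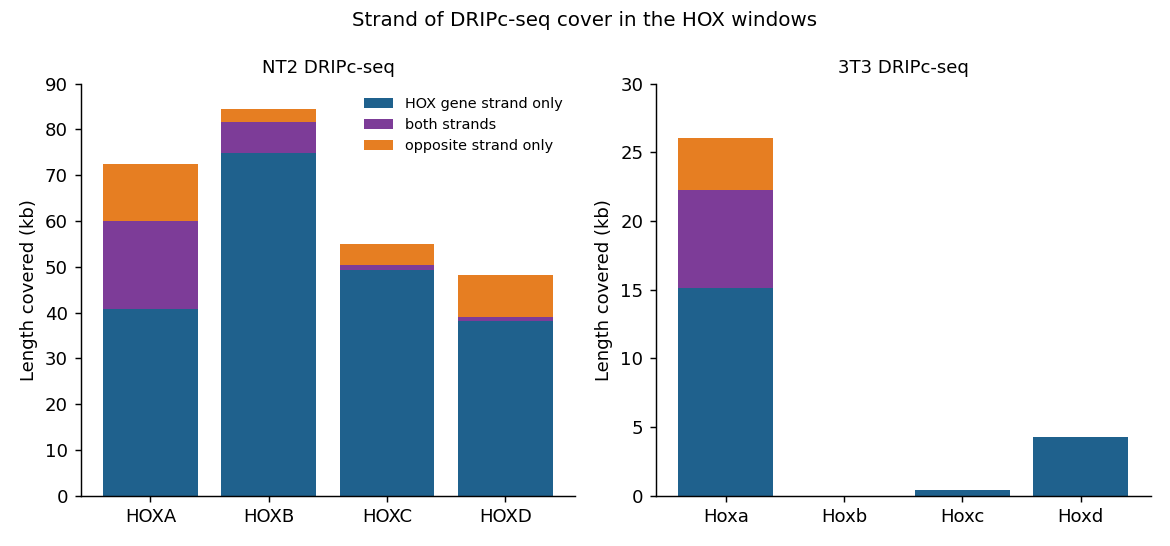
Length covered by DRIPc-seq (kb, y axis) in each HOX window, stacked as HOX gene strand only, both strands and opposite strand only, for NT2 (left) and 3T3 (right, different y scale). HOXA and Hoxa have the largest segments covered on both strands, 26.8% and 27.4% of their cover.

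In mouse, the fibroblast line and the stem cell line had no shared peak in the clusters. E14 DRIP-seq covered 0.943% of the 4 windows, below its 4.91% of the chromosomes, with 2 abutting peaks in Hoxb and none in Hoxa, Hoxc or Hoxd. Those 2 peaks spanned 6.13 kb, chr11:96129591-96135719. 3T3 DRIP-seq covered 14.7%, above its 4.64% of the chromosomes, with 10 peaks in Hoxa, 5 in Hoxc, 7 in Hoxd and none in Hoxb. None of the 22 3T3 members touched an E14 peak (0%, 0 to 15.4), where 61.6% of all 3T3 peaks did. Neither E14 member touched a 3T3 peak (0%, 0 to 84.2), where 47.8% of all E14 peaks did. The surroundings were shared: within 1 Mb outside Hoxa, Hoxb, Hoxc and Hoxd, 51.6%, 80%, 73.1% and 80% of 3T3 peaks touched an E14 peak. E14 listed 48 peaks within 1 Mb outside the Hoxa window.

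3T3 cover in Hoxa lay at the low-numbered end. Hoxa was covered to 43.7%, Hoxd to 20.8% and Hoxc to 8.50%. Split at the middle of the Hoxa window, 77.0% of the side of the low paralog groups was covered and 10.3% of the side of group 13. The longest regions were 22.4 kb (chr6:52145653-52168006) and 15 kb (chr6:52107261-52122266) in Hoxa and 9.17 kb (chr2:74544199-74553369) in Hoxd, and none had an E14 peak. In Hoxc the longest was 4.69 kb (chr15:102828413-102833098). Hoxd cover lay in the middle of the window, between chr2:74533931 and 74583971, and none reached its ends. Single 10 kb tiles there were covered by up to 84.6%. The authors' class names put 17 of the 22 members in Noisy_MedPeak, which held 84.2% of the 3T3 list, 3 in Noisy_BroadPeak and 1 each in Sparse_MedPeak and Sparse_SharpPeak.

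3T3 DRIPc-seq marked mainly Hoxa. It covered 20.1% of the Hoxa window, 3.28% of Hoxd, 0.293% of Hoxc and 0% of Hoxb, against 3.27% of the chromosomes. Of its 29 members, 26 (89.7%, 72.6 to 97.8) touched a 3T3 DRIP-seq peak, where 58.2% of all did. In the other direction 10 of 22 DRIP-seq members (45.5%, 24.4 to 67.8) touched DRIPc-seq, close to the 45.6% of all. These were 8 of 10 in Hoxa, 1 of 5 in Hoxc and 1 of 7 in Hoxd, and in the other direction 23 of 24 in Hoxa, 1 of 1 in Hoxc and 2 of 4 in Hoxd. Of the Hoxd DRIPc-seq length, 45.1% lay in DRIP-seq, near the 41.5% of the whole list. In Hoxa 58.0% of the DRIPc-seq cover was on the gene strand only, 14.6% on the opposite strand only and 27.4% on both. All 4 Hoxd peaks and the Hoxc peak were on the gene strand. Of the members, 12 of 29 (41.4%, 23.5 to 61.1) touched a peak of the opposite strand, all 12 of them in Hoxa, where 19.9% of the whole list did.

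**Figure D5:**
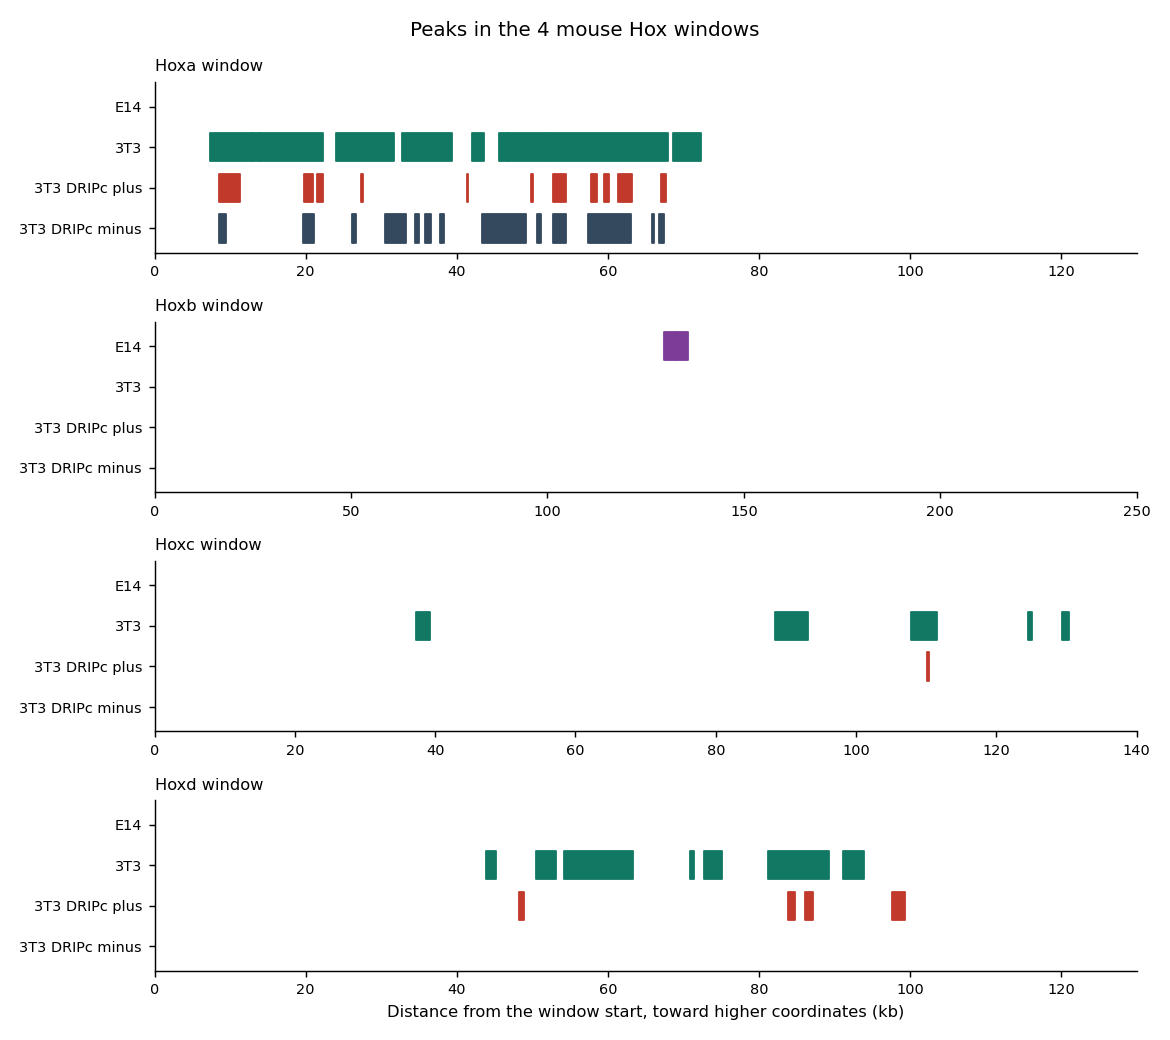
Peaks of the 3 mouse lists (rows) along the 4 Hox windows, with distance from the window start in kb on the x axis and 3T3 DRIPc-seq split by strand. 3T3 peaks fill the first part of Hoxa and stand in Hoxc and Hoxd, and the 2 abutting E14 peaks in Hoxb are the only peaks of that window.

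Placed side by side, the windows of the 2 species had unlike patterns in the pluripotent lines. NT2 called peaks in all 4 clusters and E14 in Hoxb only. Of the other lines, K562 called peaks in HOXB and HOXC and 3T3 in Hoxa, Hoxc and Hoxd. Human list and cluster pairs with no peak were 6 of 24, and mouse pairs 5 of 12. The human count includes RNase A in HOXA and RNase H in HOXA, HOXB and HOXD. Among the untreated human lists only K562 had empty windows, HOXA and HOXD. Positions were not compared between the species, and the libraries differ in line, species and unknown depth.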

How the data were processed

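The series has 13 samples. The 9 peak lists used here come from 10 of them by cell line, assay, digest and RNase treatment, and the NT2 RNA-seq and MethylC-seq samples were not used here. The deposited lists hold no counts or heights, only start and end positions in bp, in DRIPc-seq with a strand, and in the mouse DRIP-seq lists with a class name. Tools named in the submitters' processing notes, with no role, are Bismark 0.7.7, BWA 0.6.1 and TopHat2 2.0.5, and the builds include hg19 and mm9. Not given in the sources used here: peak caller, threshold, filters, and the way the 2 NT2 DRIPc-seq samples were combined. The authors' threshold and the depth decide what is listed.

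Members were peaks touching a window by at least 1 bp. Cover is the union of peaks, clipped to the window, and shares of chromosomes take each chromosome to end at the last position of any list. Overlaps ignored strand. Shares have exact Clopper-Pearson 95% intervals. Named regions are, after joining peaks within 1 bp, the longest of each list and cluster, the 3 longest digest A regions with no RNase A peak, the 3 longest DRIPc-seq regions per strand, and the 3 longest mouse regions present in 1 DRIP-seq list and not the other. Other stretches, such as the open stretch in HOXB, the last block beyond it and the places of the RNase A peaks, were chosen after their values were seen. Alternatives were another minimum overlap, the longest 50% of each list, base pairs, peaks joined within 1 kb, peaks wholly inside a window, digest B or DRIPc-seq for digest A, wider windows and other tiles. RefSeq promoters gave the strand of 20 of the 38 human HOX genes, 1 of them in HOXB and 2 in HOXC. For the other human genes and for mouse the strand is textbook knowledge, and each cluster was given 1 strand. The windows, members and comparisons were chosen with earlier results of these data known. Functions were tested on simulated lists, and overlap counts were the same with bedtools 2.31.1 in 18 of 18 comparisons. Scripts ran under Python 3.11.15 with scipy 1.17.1, pandas 2.3.3, numpy 2.4.6 and matplotlib 3.10.9.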

Additional observations from a re-analysis of the deposited data

How the results depend on the processing

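Of 65 alternative values, 62 stayed within the 95% interval of the reported share or within 1.5 times the reported cover or strand share. Part of this was fixed in advance. With no peak shared by E14 and 3T3 in the windows, a stricter overlap must also give 0%. The setting of peaks wholly inside a window kept the same peaks throughout. With digest B as the untreated NT2 list, 75% of members had no RNase A peak, where digest A gave 87.6%. With peaks joined within 1 kb, 84.2% of digest A members were found in digest B, where 92.1% were found otherwise. In tiles of 100 kb, 50% had no RNase A cover (3 of 6), where tiles of 10 kb gave 75.9%. The tiles of 100 kb and the use of DRIPc-seq in place of digest A were chosen after seeing the data. The cause of these changes was not tested. No paired analysis was possible because each group has 1 peak list, and no replicate could be left out. Depth is unknown, so a region not called may have been too shallow in that library. Peaks in a cluster are neighbours and not independent, the intervals cover counting error only, and without an hg19 or mm9 annotation no peak was tied to a single HOX gene.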
